A study of Mus musculus with 12 samples.

Results

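Complement is the set of plasma and cell-surface proteins that tags particles, crystals and dying cells for uptake. On the array, 36 genes of complement components, receptors and regulators were followed, out of 34810 gene names, by taking each probe that the array annotation assigns to a member. They had 49 probes: 25 genes had 1 probe, 9 had 2 and 2 had 3. Each probe was treated on its own and is named by its position in the transcript, as the annotation gives it, where a gene has several. The members fall into the C1q chains (3 genes), the classical pathway proteases with C4 (4), the lectin pathway (6), C3 and the alternative pathway (4), the terminal components (7), receptors and binding proteins (6) and regulators (6).

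The classical pathway starts when C1q binds a target and activates the proteases C1r and C1s, and the lectin pathway when mannose-binding lectins or ficolins do so with the MASP proteases. Both cleave C4 and C2, and the alternative pathway, built from factor B, factor D and properdin, amplifies the cleavage of C3. Fragments of C3 and C5 attract and arm myeloid cells, and the terminal components C5 to C9 form a pore in membranes. The liver makes most plasma complement, but tissue macrophages are a main source of C1q and properdin, and kidney tubule cells make C3.

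RNA came from 12 samples, 3 in each of 4 groups, hybridized to one-colour arrays. The renal groups were cells positive for CD11b and CD11c, separated on magnetic columns from kidneys of WT and op/op mice, all given glyoxylate (GOX) at 80 mg/kg for 6 days, which leads to calcium oxalate crystals. All samples carry the strain label B6C3Fe a/a-Csf1op/J, a mixed background; op/op mice are homozygous for the op mutation of Csf1, which encodes M-CSF, the growth factor of macrophages, and WT mice are the wild type of that line. No untreated kidney is among the samples, so no value here describes the effect of GOX. M1 cells were macrophages grown from bone marrow and stimulated with LPS and GM-CSF, M2 cells the same with IL-4 and M-CSF; these 2 conditions differ in the growth factor as well as in the stimulus. The genotype of the bone marrow donors, ages, sexes and whether mice were pooled are not given in the sources used here, and nothing in the labels tells whether replicates are different animals or cultures, so the p-values speak of sample-to-sample spread that may be technical only.

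Levels are log2 signals relative to the 75th percentile of the same array, so a level of 0 is that percentile, and levels of different probes are not comparable. Between 63.1% and 79.3% of all probes were well above background, with the op/op (63.1% to 68.7%) and M2 arrays (64.3% to 65.0%) lowest. The number of arrays limits the precision, and the spread around the group means, taken over all probes, was wider in renal samples (median residual SD 0.376) than in bone marrow samples (0.172). The limma fit used a shared estimate of the spread for all 12 arrays. SEs and p-values between the renal groups can thus be too small, and those between M1 and M2 too large. With only the renal groups fitted, probes called lower in op/op went from 11561 to 7064 and those called higher from 11181 to 6448. WT replicate 1 was alone on slide 1 and the other 5 renal arrays shared slide 2. WT and M1 arrays lay in the upper row of their slides and op/op and M2 arrays in the lower, so row and group cannot be told apart. Itgam, which encodes CD11b, did not pass the test between the renal groups (0.31, adjusted p = 0.228), and Itgax, which encodes CD11c, was lower in op/op (-1.61). Csf1 itself did not pass the test (-0.42, adjusted p = 0.114; limma); its op allele is known as a small insertion, so its RNA level is no check of the labels. Of 14 tested macrophage markers 12 were lower in op/op, with a summed level of 7.04 to 8.01 on WT and 6.26 to 6.32 on op/op arrays. Of 9 B cell and 6 T cell markers tested, 7 and 4 were higher in op/op. The 4 T cell probes (Cd3e, Cd4, Cd8b1 and Lck) were also well above background on every M1 and M2 array, so their signal was not particular to renal samples. Among the B cell probes that were higher, the same held for Cd22 but not for Ms4a1. Of all probes tested between the renal groups, 28.5% were lower and 27.5% higher in op/op. In these bulk samples, fewer cells of a type and less RNA per cell cannot be told apart. WT replicate 4 stood nearer to the op/op arrays than the other WT arrays did: it was the WT array closest to op/op for 11 of the 15 complement probes lower in op/op and 4 of the 6 that were higher. A probe for H2-Ea (H2-Ea-ps in the annotation), an MHC class II gene silent in some mouse haplotypes, read -6.13 and -6.65 on WT replicates 1 and 2 but 1.76 on WT replicate 4 and 1.78 to 2.26 on the op/op arrays.

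The start regions of the C1q genes and 2 receptor genes are shown because these members carry the contrasts described next: C1qc and C3ar1 were lower in op/op, C1qb did not pass the test and Vsig4 was higher. Each line holds the 250 bases before the RefSeq start, read 5′ to 3′ on the strand of the gene in GRCm38.p6: chr4:136886201-136886450 for C1qb, chr4:136892915-136893164 for C1qc, chr6:122856158-122856407 for C3ar1, chrX:96293439-96293688 for Vsig4. Capitals mark matches, on either strand, to 3 short motifs bound by factors of the myeloid lineage: GAGGAA (the core of PU.1 sites), AANNGAAA (the core of IRF sites) and TGCTGA (a MAF half-site).
C1qb: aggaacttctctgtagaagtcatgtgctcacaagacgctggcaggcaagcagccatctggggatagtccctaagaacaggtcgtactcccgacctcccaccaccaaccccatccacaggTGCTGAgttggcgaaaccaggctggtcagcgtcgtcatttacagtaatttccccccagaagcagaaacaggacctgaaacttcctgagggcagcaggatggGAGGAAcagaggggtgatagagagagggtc
C1qc: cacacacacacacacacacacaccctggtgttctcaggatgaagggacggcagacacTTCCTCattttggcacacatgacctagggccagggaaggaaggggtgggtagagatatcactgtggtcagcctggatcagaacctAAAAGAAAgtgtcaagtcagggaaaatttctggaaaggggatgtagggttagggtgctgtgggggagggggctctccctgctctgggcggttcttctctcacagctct
C3ar1: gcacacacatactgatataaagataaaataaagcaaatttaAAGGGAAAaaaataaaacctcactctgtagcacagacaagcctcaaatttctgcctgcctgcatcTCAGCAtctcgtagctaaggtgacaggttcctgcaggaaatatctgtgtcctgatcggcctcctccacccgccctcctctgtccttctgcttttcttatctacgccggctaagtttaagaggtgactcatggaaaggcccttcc
Vsig4: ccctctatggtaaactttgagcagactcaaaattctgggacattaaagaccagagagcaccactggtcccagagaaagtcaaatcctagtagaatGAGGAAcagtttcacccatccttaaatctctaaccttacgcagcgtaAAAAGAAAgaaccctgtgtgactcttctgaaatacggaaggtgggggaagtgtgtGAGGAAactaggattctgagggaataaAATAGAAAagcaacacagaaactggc

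C1qb and C1qc each hold 1 GAGGAA, on opposite strands, and Vsig4 holds 2. An AANNGAAA lies in the windows of C1qc and C3ar1 and 2 in that of Vsig4, and a TGCTGA in those of C1qb and C3ar1. Of all 32851 starts in the table, 23.3% hold a GAGGAA, 21.3% an AANNGAAA and 16.1% a TGCTGA. Of the 30 starts that 28 of the members have there, 5, 9 and 10 hold them, which describes these windows and shows no binding. The start of C1s was found under its current symbol C1s1; C1qa and 7 other members had no entry.

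Between the renal groups, more complement probes were called lower than higher in op/op cells. Of 37 probes tested for 29 genes, 15 were lower, 6 higher and 16 not called (limma, adjusted p under 0.05). The medians were -0.71 for these probes and 0.08 for all probes tested. In this comparison 28.5% of all 40620 probes tested were called lower and 27.5% higher, against 40.5% and 16.2% of the complement probes. A probe entered the test where all 3 arrays of WT, of op/op or of both read it well above background. Within slide 2, that is without WT replicate 1, 14 were lower and 4 higher, and without WT replicate 4 the counts were 16 and 6. Over all probes, 9700 of 42083 were lower and 9820 higher within slide 2. Without WT replicate 4, 12603 of 41203 were lower and 12170 higher.

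**Figure D1:**
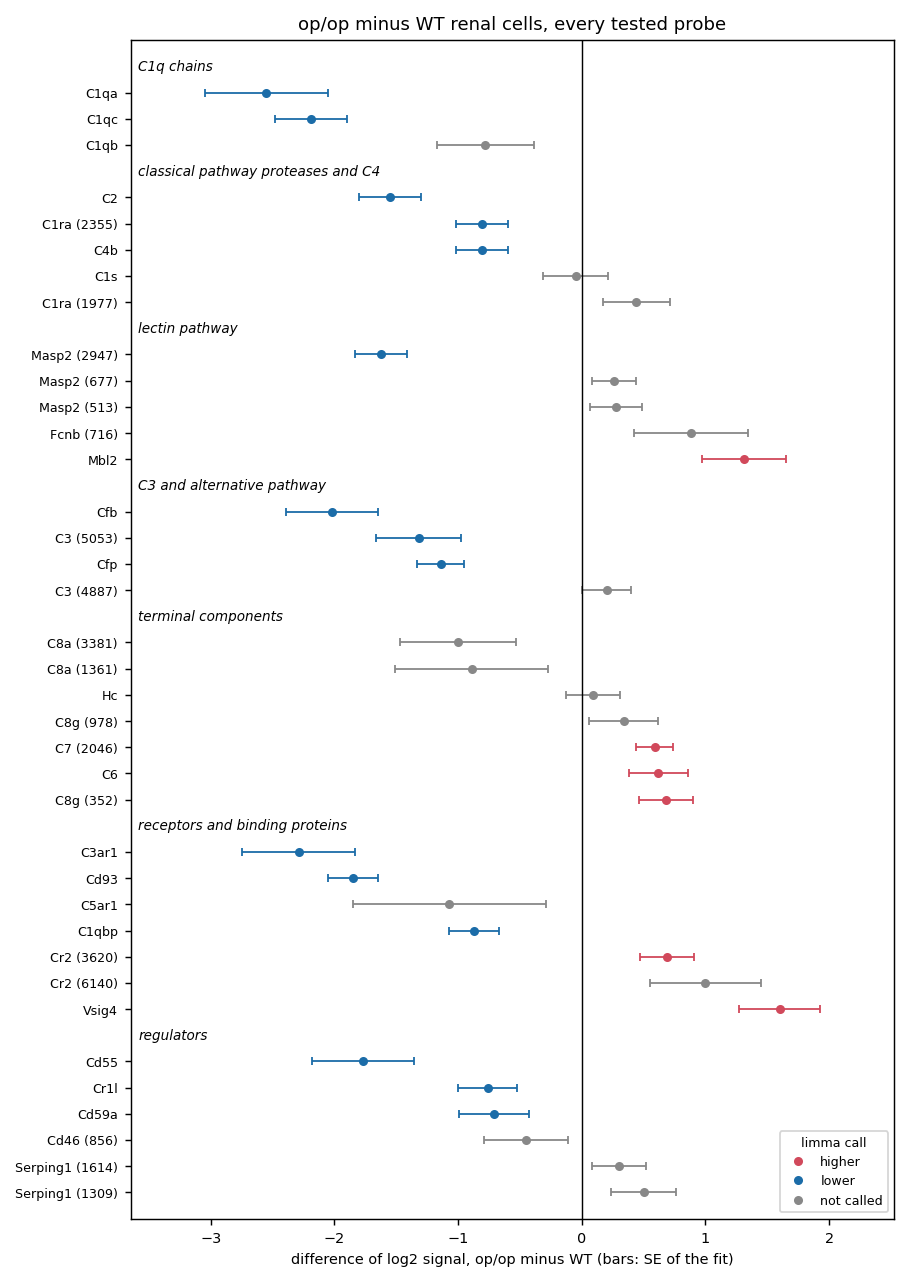
Difference of log2 signal between op/op and WT renal cells for the 37 tested complement probes, by role (x axis: log2 units; points: differences, coloured by call; bars: SE of the limma fit; numbers in brackets: transcript position where a gene has several probes). Members of the C1q, classical, C3 and alternative pathway groups lie mostly left of 0, from -2.55 for C1qa, and called terminal components right of it.

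The 3 C1q chains, which assemble together into C1q, did not differ to the same extent. Their probes lie on chromosome 4 between 136436578 and 136452468 (mm9, minus strand), a stretch of 15.9 kb. C1qa read 3.15, 4.18 and 1.51 on the WT arrays, 0.04, 0.49 and 0.64 on the op/op arrays, 3.43, 3.07 and 2.80 on the M1 arrays and 1.86, 2.12 and 2.23 on the M2 arrays. The op/op arrays were the lowest of the 4 groups and did not overlap with WT, although WT replicate 4 came near. C1qa fell 5.87-fold in op/op (-2.55 ± 0.50, SE of the fit to all 12 arrays, n = 3 arrays per group; limma, adjusted p = 0.00265). The difference was -3.27 without WT replicate 4 and -1.94 without WT replicate 2, both past the test.

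C1qc read 4.80, 5.43 and 4.04 on WT, 2.48, 2.48 and 2.75 on op/op, 5.53, 5.18 and 5.0 on M1 and 4.92, 4.87 and 4.89 on M2 arrays. The op/op arrays stood below all others, and WT overlapped with both bone marrow groups. The fall was 4.56-fold (-2.19 ± 0.29; limma, adjusted p = 0.000627). C1qb read 3.93, 4.72 and 2.68 on WT, 3.18, 2.98 and 2.83 on op/op, 5.19, 4.84 and 4.78 on M1 and 4.35, 4.49 and 4.44 on M2 arrays. Here WT replicate 4 lay below all op/op arrays, and the difference did not pass the test (-0.78 ± 0.39; limma, adjusted p = 0.104). Without WT replicate 4 it did (-1.33, adjusted p = 0.0015).

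On each array, the C1qa signal was set against C1qb: C1qa minus C1qb ran from -1.17 to -0.54 on WT and from -3.14 to -2.19 on op/op arrays, a shift of -1.78. For C1qc minus C1qb the ranges were 0.71 to 1.36 and -0.70 to -0.08, a shift of -1.41. The exact two-sided permutation test gave p = 0.1 for each, which is the smallest that 3 against 3 arrays allow (adjusted 0.1 over the 10 within-array differences computed), so this design cannot pass 0.05 for them. No C1q chain passed the test between M1 and M2 (1.03, 0.51 and 0.34 for C1qa, C1qb and C1qc; limma, adjusted p = 0.205, 0.451 and 0.509), although every M1 array was above every M2 array for each chain. When only the M1 and M2 arrays were fitted, C1qa and C1qb passed it. Renal arrays as a whole were lower than bone marrow arrays for all 3 chains (-0.92, -1.30 and -1.40), with overlap. For C1qa the mean of WT (2.95) was above that of M2 (2.07), and its call as lower in renal cells was lost with quantile normalization (-0.67), array weights (-0.53), a floor under low signals or slide as a random block, and when op/op replicate 1, M1 replicate 2 or 3, or M2 replicate 3 or 4 was left out (-0.93 to -0.83).

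**Figure D2:**
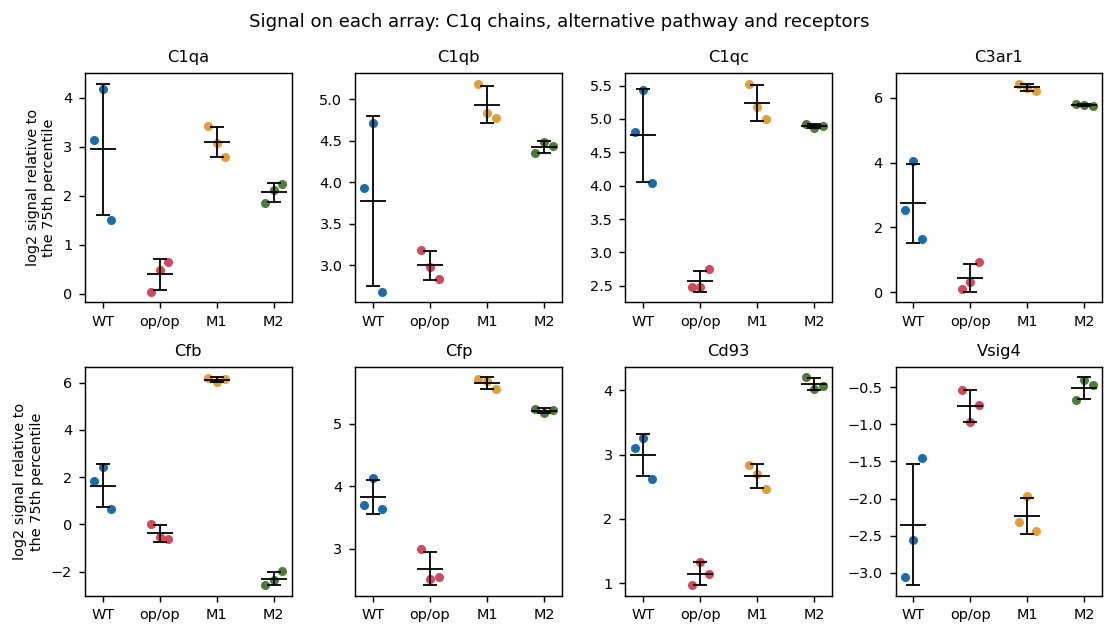
Level of 8 probes on each of the 12 arrays (y axis: log2 signal relative to the 75th percentile of the array, own scale per panel; points: arrays; bars: mean ± SD of 3 arrays). C1qa, C1qc, C3ar1, Cfb, Cfp and Cd93 are lower on every op/op array than on every WT array, C1qb overlaps, and Vsig4 is higher in op/op and M2 than in WT and M1.

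In the classical pathway, 3 of 5 tested probes fell in op/op (28.5% of all probes) and 4 of 5 rose in M1 (8.9% of all probes). Among them were C2 and C4b. C2, the protease that joins C4b in the C3 convertase (chromosome 17, 34999575 to 34999634, mm9), read 0.21, 0.65 and -0.38 on WT, -1.11, -1.57 and -1.49 on op/op, 1.48, 1.45 and 1.79 on M1 and -1.32, -1.28 and -1.02 on M2 arrays. WT arrays lay between M1 above and the other 2 groups below. C2 fell 2.93-fold in op/op (-1.55 ± 0.25; limma, adjusted p = 0.00121) and was 6.86-fold higher in M1 than in M2 (2.78 ± 0.25, adjusted p = 1.16e-05). C4b, which makes C4, read -0.29, -0.17 and 0.04 on WT, -0.62, -0.87 and -1.34 on op/op, -2.79, -2.63 and -2.31 on M1 and -3.21, -3.26 and -3.45 on M2 arrays. All renal arrays were above all bone marrow arrays (2.40 ± 0.15, 5.28-fold), and within the kidney op/op was lower (-0.81 ± 0.21; limma, adjusted p = 0.00893). The rise in M1 was 0.73 (adjusted p = 0.033; limma) and lost its call when M1 replicate 3 or 4 or any M2 replicate was left out (0.59 to 0.78). The C4b probe also matches the transcript of C4a, so the copies cannot be told apart.

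C1ra, a C1r gene, has 2 probes in neighbouring positions of the transcript, 2355 and 1977. The first read 0.46, 0.35 and 0.70 on WT, -0.80, -0.10 and -0.02 on op/op, 2.89, 2.88 and 2.92 on M1 and 0.80, 0.84 and 0.95 on M2 arrays. The other read -2.46, -2.6 and -2.82, then -2.81, -1.49 and -2.26, then -0.14, -0.40 and -0.39, then -2.21, -2.17 and -2.01 in the same order of groups. Both put M1 above all other arrays (2.04 and 1.82 over M2, 4.10-fold and 3.52-fold), but only the first was lower in op/op (-0.81, adjusted p = 0.00792; limma), and the other overlapped (0.44, adjusted p = 0.187). The call of the probe at 2355 in op/op was lost with only the groups compared (limma, adjusted p = 0.0541). C1s, the partner protease, did not pass the test between the renal groups (-0.05) or in M1 against M2 (0.61, adjusted p = 0.144; limma) and was higher in renal than in bone marrow cells (1.16).

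In the group of C3 and the alternative pathway, 3 of 4 tested probes fell in op/op (28.5% of all probes) and 3 of 4 rose in M1 (8.9%). The median in M1 against M2 was 2.59, above that of the other role groups. Cfb, factor B, which pairs with C3b in the amplifying convertase (chromosome 17, 34993502 to 34993858, mm9, a probe across a junction), read 1.86, 2.41 and 0.64 on WT, 0.03, -0.55 and -0.62 on op/op, 6.20, 6.01 and 6.15 on M1 and -2.55, -2.33 and -1.98 on M2 arrays. The 4 groups did not overlap in any pair, in the order M1, WT, op/op and M2. Cfb was 339-fold higher in M1 than in M2 (8.41 ± 0.37; limma, adjusted p = 5.01e-08; range over the alternatives 7.61 to 8.56) and fell 4.05-fold in op/op (-2.02 ± 0.37, adjusted p = 0.00196). In M1 against M2, 8.9% of all 39267 probes tested were called higher and 8.89% lower. Of the 37 complement probes tested there, 11 (29.7%), from 8 genes, were higher and 7 (18.9%) lower, with a median of 0.29 against 0 for all probes.

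The 2 probes of C3, the protein on which all pathways meet, differed between the renal groups. The brighter probe (position 4887) read 3.43, 3.77 and 3.46 on WT, 4.08, 3.49 and 3.70 on op/op, 5.31, 5.08 and 5.05 on M1 and 2.70, 2.58 and 3.06 on M2 arrays. Its renal groups overlapped (0.20 ± 0.20; limma, adjusted p = 0.402). The probe at 5053 read 2.04, 3.29 and 1.93 on WT, 1.51, 0.90 and 0.90 on op/op, 5.56, 5.33 and 5.18 on M1 and 2.42, 2.28 and 2.94 on M2 arrays. It was lower in op/op without overlap (-1.32 ± 0.34; limma, adjusted p = 0.00839). Both probes were higher on every M1 array than on every M2 array (2.37 and 2.81, 5.17-fold and 7.02-fold), so the rise in M1 rests on both probes and the fall in op/op on 1. Within arrays, the difference of the 2 probes shifted by -1.52 between WT and op/op (exact permutation p = 0.1, adjusted 0.1).

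Cfp, properdin, the stabilizer of the alternative convertase, read 3.69, 4.13 and 3.64 on WT, 2.99, 2.51 and 2.54 on op/op, 5.72, 5.68 and 5.55 on M1 and 5.24, 5.17 and 5.21 on M2 arrays. Bone marrow arrays were above all renal ones, and op/op was lowest. It fell 2.2-fold in op/op (-1.14 ± 0.19; limma, adjusted p = 0.0013) and did not pass the test between M1 and M2 (0.44, adjusted p = 0.139). Cfd, factor D, which cleaves factor B, read -3.97, -5.12 and -5.75 on WT, -5.53, -5.15 and -4.26 on op/op, -6.28, -5.22 and -5.64 on M1 and -5.47, -5.34 and -5.21 on M2 arrays. It was well above background on 1 array, a WT one, and was not tested.

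C2, Cfb and C4b lie within 134.3 kb of each other in the MHC on chromosome 17. On the same chromosome, 5 of 6 MHC genes measured as a check on haplotype were lower in op/op (28.5% of all probes) and H2-Ea was higher (27.5% of all probes). The H2-Ea call rests on WT replicates 1 and 2, since WT replicate 4 read 1.76, near the 1.78 to 2.26 of the op/op arrays. The shift of C2, Cfb and C4b in op/op without WT replicate 4, the WT array with an H2-Ea signal, was -1.82, -2.52 and -0.71. Whether the haplotype plays a part in the values of these 3 genes was not tested.

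**Figure D3:**
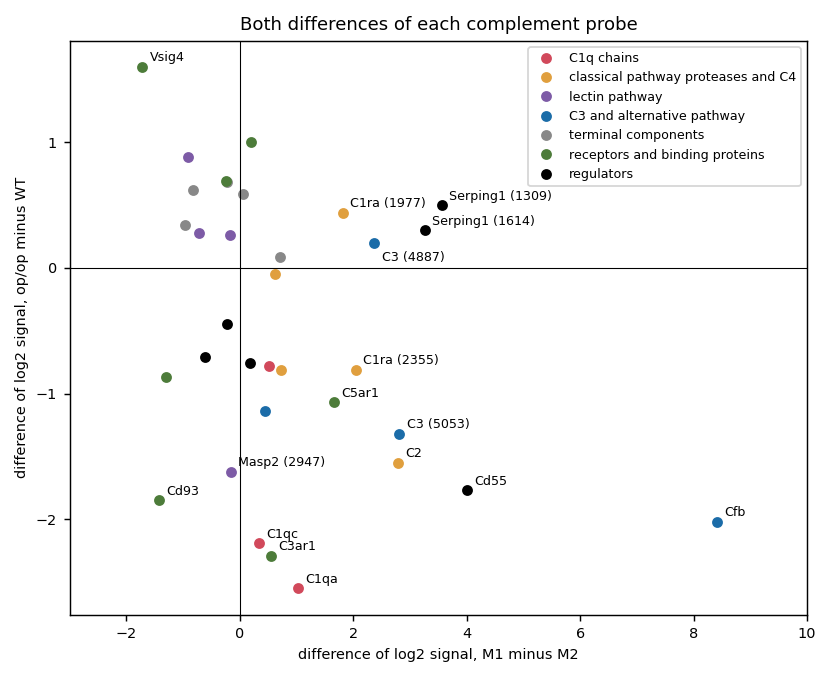
Difference between op/op and WT (y axis, log2 units) against the difference between M1 and M2 (x axis, log2 units) for the 34 complement probes tested in both, coloured by role; the 2 comparisons share no array. Cfb (8.41, -2.02), Cd55, C2 and C3 at 5053 are high in M1 and low in op/op, Vsig4 (-1.72, 1.60) is the reverse, and C1qa, C1qc and C3ar1 are low in op/op without a call in M1 against M2.

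Of the 34 complement probes tested in both comparisons, 15 were lower in op/op. Of those 15, 6 were higher in M1 (40%), from C1ra, C2, C4b, C3, Cfb and Cd55, 2 were lower in M1 (13.3%; Cd93 and C1qbp) and 7 were not called. Over all 36967 probes tested in both, 12.6% of those lower in op/op were higher in M1 and 14.7% were lower. Of the 14 complement probes not called in op/op, 5 (35.7%) were also higher in M1, against 8.5% of all probes not called there. A high share of probes higher in M1 was thus not particular to the complement probes lower in op/op. Of the 5 complement probes that were higher in op/op, 2 (40%; C6 and Vsig4) were lower in M1 and 3 were not called, and of all probes higher in op/op 4% were lower in M1. These are counts without a test. Cd55 was well above background on no op/op and no M2 array and entered both comparisons only through WT and M1, where it was high. Its call in op/op, that of C1ra in op/op, that of C4b in M1 and both calls of C6 were lost under some of the alternatives, as given with each gene.

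In the lectin pathway, 1 of 5 tested probes was lower and 1 higher in op/op (28.5% and 27.5% of all probes), and probes of the same gene went apart. Masp2 encodes the full protease MASP-2 and, from a shorter transcript, the truncated protein MAp19. The probe at 2947, which the annotation assigns to transcript variant 1, read -1.03, -1.50 and -1.67 on WT, -3.37, -2.98 and -2.70 on op/op, -0.80, -0.80 and -0.97 on M1 and -0.77, -0.70 and -0.62 on M2 arrays. The probe at 513, assigned to variant 2, read -1.04, -1.59 and -1.35, then -0.71, -1.12 and -1.29, then -2.27, -1.97 and -1.86, then -1.46, -1.33 and -1.14 in the same order. The first was lower in op/op (-1.62 ± 0.21; limma, adjusted p = 0.000603), and the other overlapped (0.28, adjusted p = 0.26). With 2 of 3 op/op arrays well above background, the first entered the test through WT, and its difference was -0.76 with normexp background correction (adjusted p = 0.000792) and -1.60 with a floor. A further probe of variant 2, at 677, had 0.26 (adjusted p = 0.228). Within arrays, the probe at 2947 minus that at 513 ran from -0.32 to 0.09 on WT and from -2.66 to -1.41 on op/op arrays (shift -1.90, exact permutation p = 0.1, adjusted 0.1).

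The Masp2 probes at 2947 and 513 also had opposite calls in renal against bone marrow cells: -1.43 at 2947 and 0.49 at 513. At 513 the arrays overlapped, and the call was lost with quantile normalization and with slide as a random block. The Masp2 probe at 677 was not called there (0.16, limma, adjusted p = 0.275). Masp1 encodes the proteases MASP-1 and MASP-3. Of its probes, the one whose annotation names the MASP-3 transcript (position 2137) read -4.88, -5.20 and -6.61 on WT, -5.30, -5.06 and -5.17 on op/op, -2.6, -2.29 and -2.49 on M1 and -1.39, -1.12 and -1.18 on M2 arrays. It was well above background on all bone marrow arrays and on no renal array, and entered this test through the bone marrow arrays. Under the main processing renal cells were at least 4.03-fold lower. The fitted difference (-3.53, limma, adjusted p = 1.95e-07) ran from -4.03 to -0.95 over the alternatives with the call kept, so its size is not settled. M1 was lower than M2 (-1.23, limma, adjusted p = 0.0296), a call that was lost when any 1 bone marrow array was left out (-1.31 to -1.16). In the same comparison the Masp2 probe at 513 was lower in M1 (-0.72, adjusted p = 0.0339; limma), which was lost in the same way (-0.81 to -0.60). The 2 other Masp1 probes were well above background on 0 and 1 arrays and were not tested. Such bounds set the brighter mean against the higher of the dim signal and the lowest signal well above background on its array.

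Fcna, ficolin A, a lectin of macrophages, read -4.68, -4.17 and -5.44 on WT, -4.02, -5.70 and -5.29 on op/op, -2.30, -2.52 and -2.10 on M1 and -2.23, -1.80 and -1.63 on M2 arrays. Renal arrays were all below bone marrow arrays (limma, adjusted p = 3.64e-06). Only 1 of 6 renal arrays, a WT one, read it well above background, so the probe entered this test through the bone marrow arrays and the size of the difference (-2.78) is not settled: it was -1.22 with a floor and -0.63 with normexp background correction, with the call kept in both. Mbl2, a mannose-binding lectin, was chosen after its values were seen: it read -3.58, -3.85 and -3.72 on WT and -1.96, -2.26 and -2.99 on op/op arrays, and rose 2.48-fold in op/op (1.31 ± 0.34; limma, adjusted p = 0.00889; 0.0931 with array weights). It was not well above background on any bone marrow array, and under the main processing renal cells were at least 2.46-fold higher. The fitted difference of 2.21 ran from 0.46 to 2.4 over the alternatives with the call kept, so its size is not settled. Mbl1 was well above background on 2 arrays, both WT, and was not tested. The 2 probes of Fcnb, ficolin B, had opposite calls in renal against bone marrow cells (0.98 at 716 and -0.59 at 814), the latter well above background on 3 M1 arrays and 1 WT array and at 0.28 under another background correction (normexp). The probe at 716 did not pass the test in op/op against WT (0.88, adjusted p = 0.116; limma).

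**Figure D4:**
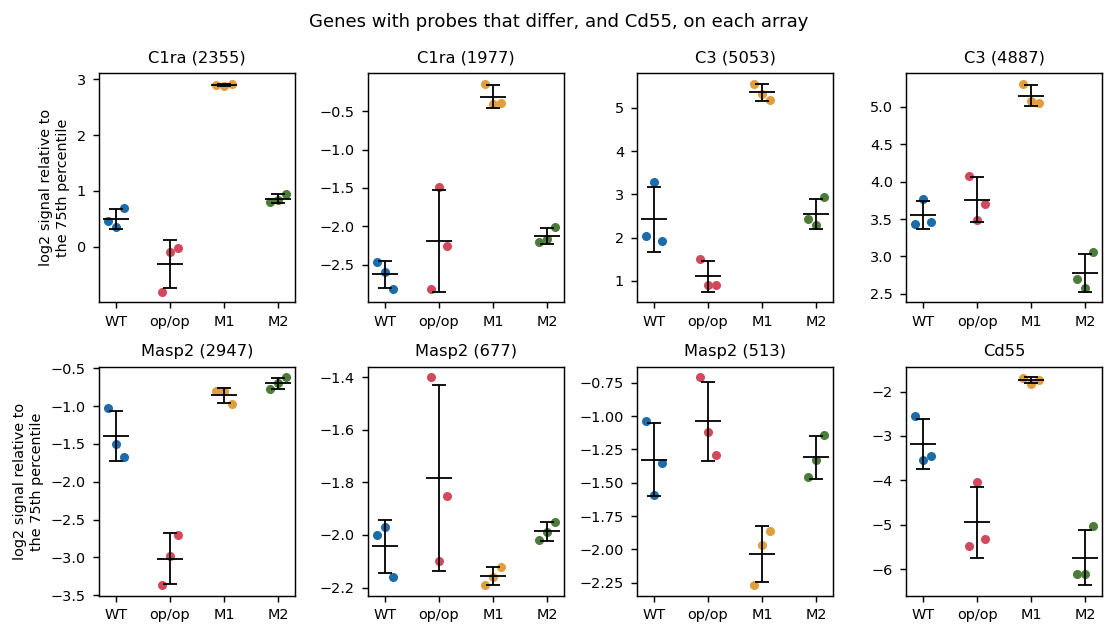
Level on each array of the 7 probes of C1ra, C3 and Masp2, genes of which 1 probe was lower in op/op and the others were not called (position in brackets), and of Cd55 (y axis: log2 signal relative to the 75th percentile, own scale per panel; points: arrays; bars: mean ± SD of 3 arrays). The probes at 2355, 5053 and 2947 are lower on all op/op than on all WT arrays, while the other probes of these genes overlap.

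The terminal components, which build the membrane pore, were higher in op/op where they passed the test. Of 7 tested probes 3 did, each by less than 2-fold, beside 27.5% of all probes called higher. C7 (position 2046) read -0.63, -0.63 and -0.57 on WT, 0.13, -0.11 and -0.07 on op/op, -1.59, -1.26 and -1.45 on M1 and -1.54, -1.48 and -1.45 on M2 arrays. It rose 1.51-fold in op/op without overlap (0.59 ± 0.15; limma, adjusted p = 0.00793; 0.0723 with only the groups compared) and was higher in renal than in bone marrow cells (1.15). The brighter C8g probe (position 978) read 0.94, 0.26 and 1.04 on WT, 1.26, 1.29 and 0.69 on op/op, -2.87, -2.30 and -3.22 on M1 and -1.73, -1.97 and -1.82 on M2 arrays. It separated renal from bone marrow arrays (3.23 ± 0.20, 9.41-fold; limma, adjusted p = 8.66e-08), while its renal groups overlapped (0.34, adjusted p = 0.314). It was lower in M1 than in M2 (-0.96, adjusted p = 0.0347; limma), a call that was lost when any bone marrow array other than M1 replicate 3 was left out (-1.02 to -0.74). The other C8g probe, at 352, was higher in op/op (0.68, adjusted p = 0.0217; limma), with adjusted p = 0.0594 within slide 2 and 0.078 when op/op replicate 1 was left out.

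The C8a probe at 3381 read -2.56, -4.50 and -3.44 on WT, -4.17, -3.93 and -5.39 on op/op, -6.21, -6.71 and -7.05 on M1 and -6.15, -6.09 and -6.14 on M2 arrays. It was well above background on the 3 WT arrays only, so the bound of at least 1.28-fold higher in renal than in bone marrow cells rests on 3 of 6 renal arrays, and the call was lost with a floor (0.13, adjusted p = 0.368; limma). The renal groups overlapped (-1.0, adjusted p = 0.0871; limma). The C8a probe at 1361 had -0.89 between the renal groups (adjusted p = 0.23; limma). C6 was higher in op/op (0.62, adjusted p = 0.0483; limma), and lost the call when any 1 renal array was left out (0.51 to 0.67). It was lower in M1 than in M2 (-0.82, adjusted p = 0.0374; limma), which was lost when any bone marrow array other than M1 replicate 3 was left out (-0.89 to -0.52). Hc, which encodes C5, did not pass the test in op/op against WT (0.09, limma, adjusted p = 0.742). It was well above background on all M1 arrays and on no M2 array. Hc thus entered the test of M1 against M2 through M1 and has no fold there. Its call as higher in M1 (adjusted p = 0.0458; limma) was lost with a floor, under normexp and quantile normalization, and when M1 replicate 3 or 4 or any M2 replicate was left out. C8b was well above background on 1 WT array and C9 on none, as was the other C7 probe, and these were not tested.

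Of 7 tested probes of receptors and binding proteins, 3 were lower and 2 higher in op/op (28.5% and 27.5% of all probes). In M1, 3 were lower (8.89% of all probes). The anaphylatoxin receptor C3ar1, through which the C3a fragment acts on myeloid cells, read 2.55, 4.05 and 1.63 on WT, 0.11, 0.32 and 0.94 on op/op, 6.43, 6.31 and 6.21 on M1 and 5.79, 5.76 and 5.74 on M2 arrays. The bone marrow arrays were far above the renal ones (renal minus bone marrow -4.44 ± 0.33, 21.7-fold; limma, adjusted p = 2.69e-07), and op/op was lowest. C3ar1 fell 4.88-fold in op/op (-2.29 ± 0.46; limma, adjusted p = 0.00288; -1.63 without WT replicate 2). Every M1 array was above every M2 array for C3ar1, but the difference did not pass the test (0.55, limma, adjusted p = 0.499). It passed when only M1 and M2 arrays were fitted (limma, adjusted p = 0.00412). C5ar1, the receptor of C5a, read -2.51, -1.49 and -3.73 on WT, -2.95, -5.81 and -2.19 on op/op, -0.18, -0.49 and -0.90 on M1 and -2.15, -2.40 and -2.02 on M2 arrays. The renal groups overlapped (-1.07 ± 0.78; limma, adjusted p = 0.248), with 2 of 3 op/op arrays well above background. All M1 arrays were above all M2 arrays, but the difference did not pass the test (1.66 ± 0.78, adjusted p = 0.181); it did when only M1 and M2 arrays were fitted.

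Cd93, a surface protein of monocytes and endothelium once taken for a C1q receptor, read 3.1, 3.26 and 2.62 on WT, 0.97, 1.33 and 1.14 on op/op, 2.84, 2.70 and 2.47 on M1 and 4.20, 4.02 and 4.07 on M2 arrays. It was lowest in op/op (-1.85 ± 0.20, 3.60-fold; limma, adjusted p = 0.000314) and lower in M1 than in M2 (-1.42 ± 0.20, adjusted p = 0.000346). C1qbp, a mitochondrial protein that also binds C1q, read 1.83, 1.98 and 1.63 on WT, 0.53, 1.03 and 1.29 on op/op, 2.59, 2.64 and 2.54 on M1 and 3.84, 3.86 and 3.95 on M2 arrays. It too was lowest in op/op (-0.87 ± 0.20; limma, adjusted p = 0.00489) and highest in M2 (M1 minus M2 -1.30).

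Vsig4, a macrophage receptor for C3b and iC3b, was chosen after its values were seen, because it was higher in op/op while C3ar1 and Cd93 were lower. It read -3.05, -2.55 and -1.46 on WT, -0.54, -0.97 and -0.74 on op/op, -2.31, -1.97 and -2.43 on M1 and -0.68, -0.40 and -0.47 on M2 arrays. The op/op and M2 arrays were the high ones, without overlap with WT or M1. Vsig4 rose 3.04-fold in op/op (1.60 ± 0.33; limma, adjusted p = 0.0031; 2.05 without WT replicate 4 and 1.25 within slide 2) and was 3.30-fold lower in M1 than in M2 (-1.72 ± 0.33, adjusted p = 0.00327).

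Cr2, in the mouse the gene of complement receptors 1 and 2 on B cells and follicular dendritic cells, has 2 probes. The brighter, at 6140, read 1.64, 3.67 and 3.93 on WT, 4.21, 3.94 and 4.10 on op/op, 3.33, 3.34 and 3.24 on M1 and 3.05, 3.08 and 3.17 on M2 arrays. Only WT replicate 1 was low, and the difference did not pass the test (1.0, adjusted p = 0.0765; limma), except when WT replicate 4 was left out (1.43, adjusted p = 0.0179). Without WT replicate 1, that is within slide 2, it was 0.28 (adjusted p = 0.147; limma). The probe at 3620 was higher in op/op (0.69, adjusted p = 0.0218; limma), with adjusted p = 0.0701 within slide 2, 0.0644 without WT replicate 2 and 0.0856 with op/op replicate 1 left out. The B cell markers, of which 1 was lower in op/op, had a summed level of 4.18 to 4.68 on WT and 5.10 to 5.52 on op/op arrays; their part in the Cr2 values was not tested.

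**Figure D5:**
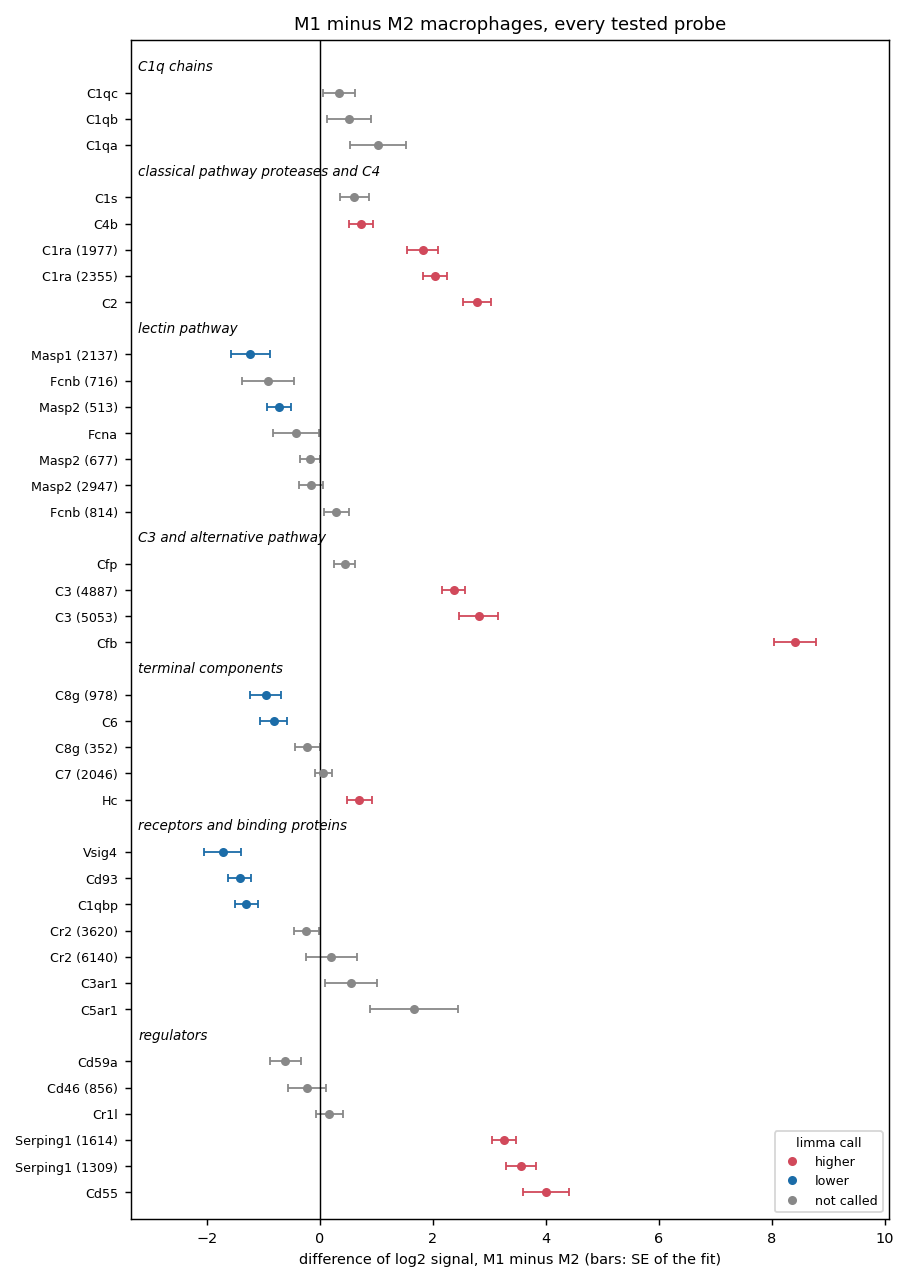
Difference of log2 signal between M1 and M2 macrophages for the 37 tested complement probes, by role (x axis: log2 units; points: differences, coloured by call; bars: SE of the limma fit; position in brackets where a gene has several probes). Cfb at 8.41, Cd55, Serping1, C3, C2 and C1ra lie far to the right, while Vsig4, Cd93 and C1qbp lie left of 0 and the C1q chains are not called.

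Of 6 tested probes of regulators, 3 were higher in M1, from 2 genes (8.9% of all probes), and 3 were lower in op/op (28.5% of all probes). Serping1, the C1 inhibitor, which blocks C1r, C1s and the MASPs, read 1.45, 0.82 and 1.16 on WT, 0.99, 1.61 and 1.73 on op/op, 3.37, 3.39 and 3.53 on M1 and 0.04, 0.21 and 0.27 on M2 arrays (position 1614). M1 was highest and M2 lowest without overlap with the renal arrays, which overlapped with each other. It rose 9.57-fold in M1 over M2 (3.26 ± 0.22; limma, adjusted p = 1.36e-06), and the probe at 1309 gave 11.8-fold (3.56 ± 0.26). Neither passed the test in op/op against WT (0.30 and 0.50), although the latter did within slide 2 (0.84, adjusted p = 0.00636; limma). Cd55, which speeds the decay of C3 convertases, was chosen after its values were seen: it read -2.54, -3.55 and -3.46 on WT, -5.48, -4.04 and -5.33 on op/op, -1.69, -1.82 and -1.73 on M1 and -6.11, -6.10 and -5.03 on M2 arrays. It was well above background on all WT and M1 arrays and on no op/op or M2 array. Under the main processing M1 was at least 4.43-fold higher than M2. The fitted difference (4.0, limma, adjusted p = 3.53e-05) ran from 1.39 to 4.36 over the alternatives, with the call kept. Cd55 in op/op was at least 1.08-fold lower than in WT (-1.77, limma, adjusted p = 0.00544), a call that was lost with normexp background correction (0.04) and with a floor.

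Cd59a, the inhibitor of the membrane pore, read 2.10, 1.14 and 1.33 on WT, 0.56, 1.36 and 0.52 on op/op, -1.33, -1.03 and -1.26 on M1 and -0.67, -0.61 and -0.52 on M2 arrays. Renal arrays were above all bone marrow arrays (2.07 ± 0.20, 4.21-fold; limma, adjusted p = 1.67e-06). The renal groups overlapped, and the lower level in op/op (-0.71, adjusted p = 0.0458; limma) lost its call within slide 2 (-0.42, adjusted p = 0.172) and when op/op replicate 1 or 4 was left out (-0.59 and -0.56). Cr1l, the rodent inhibitor Crry, read 1.89, 2.26 and 1.78 on WT, 0.64, 1.42 and 1.59 on op/op, 2.95, 3.05 and 3.04 on M1 and 2.94, 2.68 and 2.91 on M2 arrays. It was lower in renal than in bone marrow cells (-1.33) and lowest in op/op (-0.76 ± 0.24; limma, adjusted p = 0.0193, which rose to 0.0714 with WT replicate 2 and to 0.0638 with op/op replicate 1 left out). Cd46 (position 856) did not pass the test in op/op against WT (-0.45) or M1 against M2 (-0.23). Its other probe and Cfi, the factor I protease that cuts C3b, were well above background on no array.

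Over renal against bone marrow cells, C4b, C7 and C8g were higher in renal cells and C3ar1, C1qc and properdin lower. Of 40 probes tested for 31 genes, 14 (35%) were higher and 19 (47.5%) lower in renal cells, against 45.6% and 33.9% of all 42920 probes tested; the medians were -0.36 and 0.26. All 3 C1q probes and 3 of 4 of the C3 and alternative pathway were lower, and 6 of 7 terminal component probes were higher. Of these calls, that of C1qa depended on the settings given above, that of C1qb was lost with slide as a random block (adjusted p = 0.0503; limma), and those of Hc and both C8a probes were lost with a floor; C6 was not called (0.38, adjusted p = 0.0608; limma). Of 13 proximal tubule markers 12 were higher in renal cells, with a summed level of 4.71 to 8.02 on renal and 2.18 to 3.56 on bone marrow arrays; tissue, slide and cell source cannot be told apart here. Between the renal groups the same list had 12 of 13 markers lower in op/op, against 28.5% of all probes. Its summed level was 6.99 to 8.02 on WT and 4.71 to 6.21 on op/op arrays. C3 at 5053, C4b and Cd59a, 3 of the 15 complement probes lower in op/op, differed in the same direction, while C3 at 4887 was not called (0.20). The part of these markers in the values of the 3 genes was not tested.

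Of 34 further complement genes, 30 were on the array. Between the renal groups 20 were tested, 3 higher and 5 lower in op/op, with a median of 0.11. Of all probes tested there, 27.5% were higher and 28.5% lower. In M1 against M2, 4 of 20 were higher and 1 lower, against 8.9% and 8.89% of all probes. The members with the smallest adjusted p were Clu, Ptx3, Itgax, Colec12, Cfhr2 and Lrp1. Clu, clusterin, an inhibitor of the terminal pore, was higher in renal cells (5.83), with no call between the renal groups (-0.46). Ptx3, a pentraxin that binds C1q, was higher in M1 than in M2 (2.05) and lower in renal cells (-5.68). Itgax, which is also the alpha chain of complement receptor 4, was lower in M1 than in M2 (-4.16) and in op/op (-1.61). Colec12, a scavenger collectin, was called lower in op/op and in renal cells (-1.39 and -3.18), with 1 of 3 op/op arrays well above background, so the size of either difference is uncertain. Cfhr2, a factor H related gene, was higher in renal cells (1.80), and Lrp1, a receptor with complement ligands, lower (-1.94).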

How the data were processed

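The deposited spot intensity values, background-subtracted, came from Agilent Feature Extraction (version 10.7.3.1, per the submitters' processing notes and the file headers). RNA was amplified as cDNA (Ovation PicoSL) and labelled with Cy3, per the labels' protocols. The deposited value table holds log2 values, found by the comparison with each array's scanner signal (r = 1.0, slope 1.0, column medians -2.47 to -1.88, 75th percentile at 0); it served as an alternative. Coordinates of probes are in mm9, per the file headers.

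Spots of a probe were averaged, 30 of 55681 probes with a flagged spot were left out, and log2 of the processed signal was taken relative to each array's 75th percentile. Differences were fitted with limma 3.58.1 (R 4.3.3, statmod 1.5.0) on all 12 arrays in 4 groups, without covariates, and adjusted by Benjamini and Hochberg over all probes tested in a comparison. Renal minus bone marrow is the mean of the renal groups minus that of the bone marrow groups. Summed levels are log2 of summed signals of a list's brightest probes. The procedure was run on simulated data in which a probe had the same spread on all 12 arrays. That simulation cannot show how the unequal spreads of renal and bone marrow samples bear on the calls. Alternatives to the scaling were normexp (offset 50), quantile normalization, median centring, the deposited values and a floor (10th percentile of signals well above background); alternatives to the fit were dropping the filter, requiring all 12 arrays above background, the brightest probe per gene, only the groups compared, eBayes trend with robust, array weights, slide (fixed or random), a replicate block, a 2-fold minimum and leaving out each array.

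Values on every array were given for the brightest probe of each C1q chain, C3, Cfb, Cfd, Cfp, C3ar1 and C5ar1, and for the 3 members of each other role group with the smallest adjusted p. The members, lists and rules were chosen with earlier results of these data known. Upstream sequences are RefSeq's (GRCm38.p6), matched by symbol. Figures were drawn with matplotlib 3.10.9 (Python 3.11.15, pandas 2.3.3, numpy 2.4.6).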

Additional observations from a re-analysis of the deposited data

How the results depend on the processing

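Of the called complement probes, 12 of 21 kept direction and call under every alternative in op/op against WT, 12 of 18 in M1 against M2 and 21 of 33 in renal against bone marrow cells, the 2-fold minimum aside. With only the groups compared, the calls in op/op against WT of C1ra at 2355, C6, C7, C8g at 352, Cd59a, Cr1l and Cr2 at 3620 were lost. Probes higher in op/op numbered 3 with only the groups compared and 2 with a 2-fold minimum (6 in all). Over all probes, calls higher in op/op went from 11181 to 6448 and 4814 in these settings. Probes higher in M1 numbered 17 with only the groups compared (11), and those lower in M1 numbered 4 with quantile normalization, 4 with a 2-fold minimum and 3 to 5 when 1 array was left out (7). Over all probes, calls higher in M1 went from 3495 to 6854 with only the groups compared. Those lower in M1 went from 3490 to 2870 with quantile normalization, 1856 with a 2-fold minimum and 2225 to 2366 with 1 array left out. Probes higher in renal cells numbered 9 with a 2-fold minimum (14), while over all probes they went from 19580 to 12975. Reversed values were Cd55 in op/op against WT (0.04, normexp), the Fcnb probe at 814 in renal against bone marrow cells (0.28, normexp) and Cd46 there (-0.05, quantile normalization); the cause was not tested. Over all probes, normexp raised the calls higher in op/op to 14261 against 9118 lower, beside 11181 and 11561. Same-numbered arrays deviated with correlations of -0.14 to 0.12, and differently numbered ones with -0.24 to 0.27. So few pairs cannot tell whether the numbers pair the samples. With the replicate block, 4 complement probes were higher and 14 lower in op/op, and 9 higher and 5 lower in M1. Over all probes this block gave 9932 higher and 10345 lower in op/op, and 2894 higher and 2547 lower in M1. Probes not well above background have only a bound.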
